A study of Xenopus laevis with 12 samples.

Results

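The genes described here pattern the midbrain and hindbrain of the vertebrate embryo: *pax2*, *en2*, *gbx2.1*, *gbx2.2*, *egr2*, *mafb*, *irx1*, *irx2* and *irx3*. They were read from every probe set of the *Xenopus laevis* GeneChip array whose annotation gave a single symbol of one of these genes, with the endings of the L and S copies removed. *X. laevis* is an allotetraploid frog, and L and S name the copies of a gene in its long and short subgenomes. Of the 9 genes, 8 had at least 1 probe set and *mafb* had none, so 17 of 15491 tested probe sets are described. *pax2* had 8 probe sets, *en2* and *gbx2.2* had 2 each, and the other 5 genes had 1.

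RNA came from stage 15 embryos, at the neural plate stage, in 4 groups of 3 arrays each. The eye field (EF), which the labels name eye primordia, was dissected by the study's methods with its underlying mesendoderm. The posterior neural plate (PNP) was taken from the hind end of the plate, and the lateral endoderm (LE) from the flank at a level between EF and PNP. Whole embryos served as the reference, each array of dissected tissue pooled many pieces, and no sample is labelled as midbrain or hindbrain. No treatment, transgene or mutation is given for any group.

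Across the neural plate, the border between midbrain and hindbrain forms where the anterior gene *otx2* meets the posterior gene *gbx2*. This border, the isthmus, comes to express *pax2*, *en2*, *wnt1* and *fgf8* and acts as a signalling centre for both brain parts. Behind it, *egr2* (Krox-20) and *mafb* mark particular rhombomeres, the segments of the hindbrain. The Iroquois genes *irx1*, *irx2* and *irx3* encode homeobox factors that prepattern the neural plate from the posterior forebrain backward, and they are also used in ectoderm and kidney outside the neural plate.

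The labels were checked against marker genes of each tissue and of its neighbours. Against whole embryos, all 5 eye field markers were higher in EF and all 5 markers of the posterior plate and tailbud in PNP. The study selected *rax*, *pax6*, *six3* and *lhx2* partly by enrichment in these EF samples, so these are no independent check. It also shows *hoxc6*, *cdx4* and *tbxt* (*Xbra*) as PNP genes with values from these arrays. PNP also carried mesoderm markers: the 3 measured notochord markers summed to 639 to 719 intensity units on its arrays and to 61.9 to 77.2 in whole embryos. Its 3 muscle markers summed to 1177 to 1355, against 493 to 611 in whole embryos, while the 4 general neural plate markers, at 309 to 543, were not called different from whole embryos at 482 to 544. LE carried endoderm markers at 624 to 704 units and epidermal markers at 4400 to 5376, against 538 to 713 and 4060 to 4574 in whole embryos. PNP replicate 3 and LE replicate 3 deviated from their group means in the same direction (r = 0.21 over all probe sets), and counts are also given without them. Per array, the brightest Bacillus control probe set, at a log2 signal of up to 2.77, set the ceiling of the background.

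The measured genes differed in the tissue of their highest signal. The 4 brightest *pax2* probe sets, both *en2* copies, *irx1* and *irx3* had their highest mean in EF, the *gbx2* genes had it in LE, *egr2* lay near background throughout, and *irx2* was low in PNP, with no called difference among EF, LE and whole embryos. In the limma fit of all arrays with intensities as deposited, no member probe set was called higher in PNP than in any other group. Of the 17 probe sets, limma called 9 higher and 2 lower in EF compared with whole embryos, where 8.83% of all probe sets were called higher and 10.6% lower. In PNP, 0 were called higher than in whole embryos and 8 lower, against 10.2% and 12.1% of all probe sets. At an unadjusted p under 0.05, 2 were higher in PNP, *en2.L* and 1 dim *pax2* probe set. *en2.L* passed as higher under median centring (0.75, adjusted p = 0.0287 from limma) and without whole-embryo replicate 2 (0.81, adjusted p = 0.0387). The methods' t-test, an unpaired Student's test that the study's supplement names for other comparisons, called 0 higher. It kept 27 of the 48 limma calls of member probe sets in the 6 comparisons. In LE, 3 were higher and 1 was lower, against 3.23% and 5.4%. Over the members the median log2 difference from whole embryos was 0.74 in EF, beside 0.10 over all probe sets. In PNP the medians were -0.23 and 0.07, and in LE 0.12 and 0.04. Since 8 of the 17 probe sets read 1 gene, the counts are no counts of genes. By any of their probe sets, 6 genes were called against whole embryos in EF, 6 in PNP and 3 in LE. No share over all genes is given for that rule, under which a gene with more probe sets is called more easily. By the brightest probe set of each of the 8 genes, 4 were higher and 1 lower in EF, where 10.1% and 12.2% of all genes were called. In PNP, 0 genes were higher and 5 lower, against 10.7% and 13.4%, and in LE 2 and 1, against 3.11% and 5.92%. Over these 8 genes the median log2 differences from whole embryos were 0.77 in EF, -0.78 in PNP and 0.41 in LE. Over all genes they were 0.10, 0.06 and 0.02. Without PNP and LE replicate 3, 9 probe sets were called in EF, 6 in PNP and 4 in LE, with no share over all probe sets given for that fit. In these bulk samples, fewer cells of a type and less RNA per cell cannot be told apart.

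**Figure D1:**
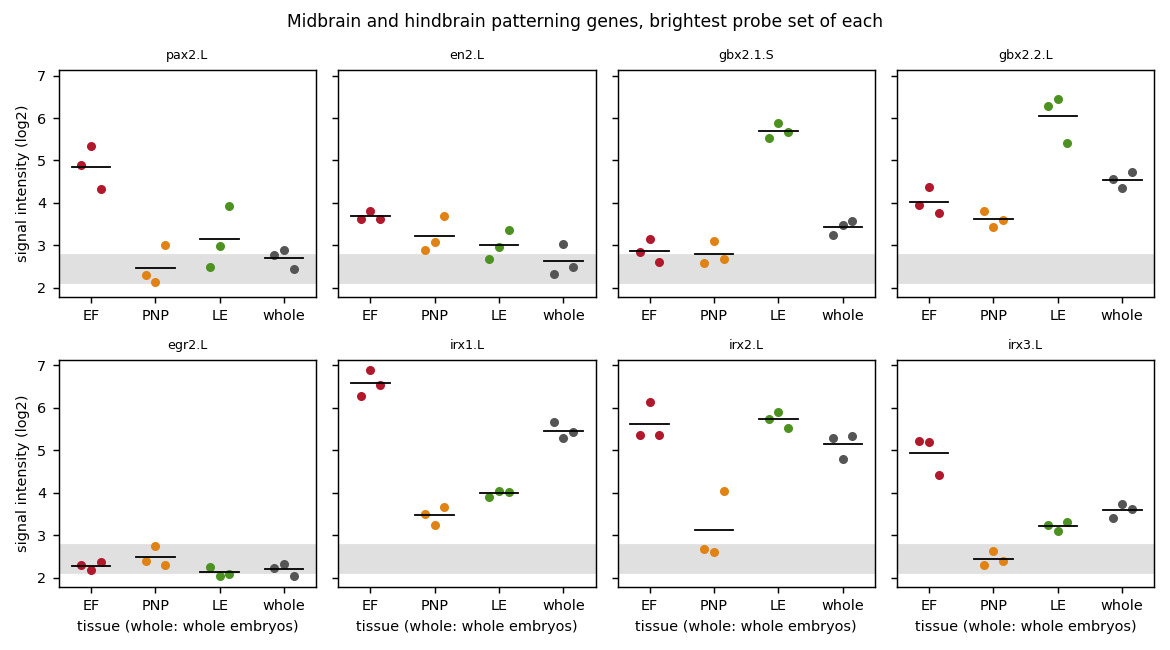
Log2 signal intensity (vertical axis) of the brightest probe set of each of the 8 measured genes in EF, PNP, LE and whole embryos. Points are arrays, black lines are the means of 3 arrays and the grey band is the range of the background ceiling over the arrays, which reached 2.77. The EF points of *irx1* and the LE points of *gbx2.1* lie apart from those of every other tissue, and all *egr2* points lie between 2.03 and 2.74.

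EF exceeded PNP in 8 member probe sets and fell short of it in 0, where 13.8% and 9.73% of all probe sets were called. At an unadjusted p under 0.05, and by the methods' t-test, 0 were lower in EF as well. EF exceeded LE in 8 and fell short of it in 3, against 14.1% and 10.7%. PNP exceeded LE in 0 and fell short in 6, against 13% and 12.6%. At an unadjusted p under 0.05, 1 was higher in PNP than in LE, *egr2*, and by the methods' t-test 0. These comparisons share arrays with one another and with those against whole embryos, and the counts are not independent.

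*pax2*, a paired-box gene of the isthmus that also marks the optic stalk, the otic placode and the pronephros, was higher in EF than in every other group. Its probe sets are lettered a to h here, from the brightest to the dimmest mean signal. On probe set b its log2 signals were 5.07, 4.67 and 4.80 in EF and 2.86, 3.31 and 3.14 in whole embryos. In LE they were 2.67, 2.45 and 2.77, and in PNP 2.44, 2.51 and 2.52. The EF arrays thus lay well above all 9 others, and the levels of whole embryos, LE and PNP were close to the background ceiling. The difference from whole embryos was 1.74 (SE 0.15, 3.35-fold, adjusted p = 8.27e-06 from limma), from PNP 2.36 and from LE 2.22. In PNP the gene was lower than in whole embryos by this probe set, at a log2 difference of -0.62 (SE 0.15, adjusted p = 0.0117), and without whole-embryo replicate 2 the difference was -0.51 (adjusted p = 0.0507). LE differed from whole embryos by -0.48 (adjusted p = 0.0754), and without whole-embryo replicate 1 it passed at -0.60 (adjusted p = 0.0485). The study lists *pax2* among the eye genes it selected, with enrichment in these EF samples as 1 criterion, so its rise in EF is not independent evidence.

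The 8 *pax2* probe sets did not report the same difference. Of them, 4 were higher in EF than in all 3 other groups, by log2 differences of 2.15, 1.74, 1.90 and 1.39 from whole embryos. On these 4 the EF means were 4.85, 4.85, 4.75 and 3.98. By the methods' t-test 2 of these differences did not pass, EF from whole embryos on probe set d (adjusted p = 0.0864) and EF from LE on probe set a (adjusted p = 0.112). The brightest, a, read 4.90, 5.33 and 4.33 in EF and 2.78, 2.88 and 2.44 in whole embryos. In LE it read 2.50, 2.99 and 3.93, so that LE replicate 3 came near the lowest EF array. Probe set d, the 1 without a suffix for shared transcripts, read 4.31, 3.60 and 4.02 in EF and 2.29, 3.01 and 2.45 in whole embryos. It lay under the ceiling on all PNP and LE arrays, and EF was at least 2.77-fold higher than PNP and at least 3.14-fold higher than LE. Its difference between PNP and whole embryos passed at an adjusted p = 0.0409 (log2 -0.63, a fold of at least 1.06). That call was lost without any 1 PNP array or without whole-embryo replicate 2 or 3, with log2 differences of -0.70 to -0.42 and adjusted p of 0.0570 to 0.152.

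The other 4 *pax2* probe sets stayed dim in every tissue, with EF means of 2.92, 2.78, 2.30 and 2.30. In EF, probe set e exceeded whole embryos by 0.74 (SE 0.23, adjusted p = 0.0431). This call was lost without EF replicate 2 or 3 or without any 1 whole-embryo array, with differences of 0.48 to 0.76 and adjusted p of 0.0787 to 0.157. Probe set f was higher in EF than in LE, where it lay under the ceiling on all 3 arrays, by at least 1.37-fold (adjusted p = 0.0422). The call was lost without EF replicate 2 or 3 or LE replicate 1 or 2, at adjusted p of 0.121 to 0.151. Probe sets g and h exceeded the ceiling on 3 and 1 of 12 arrays and passed in no comparison. For 7 of the 8, the suffix marks probes that may hybridise with several transcripts, and the annotation assigns all 8 to the L copy.

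**Figure D2:**
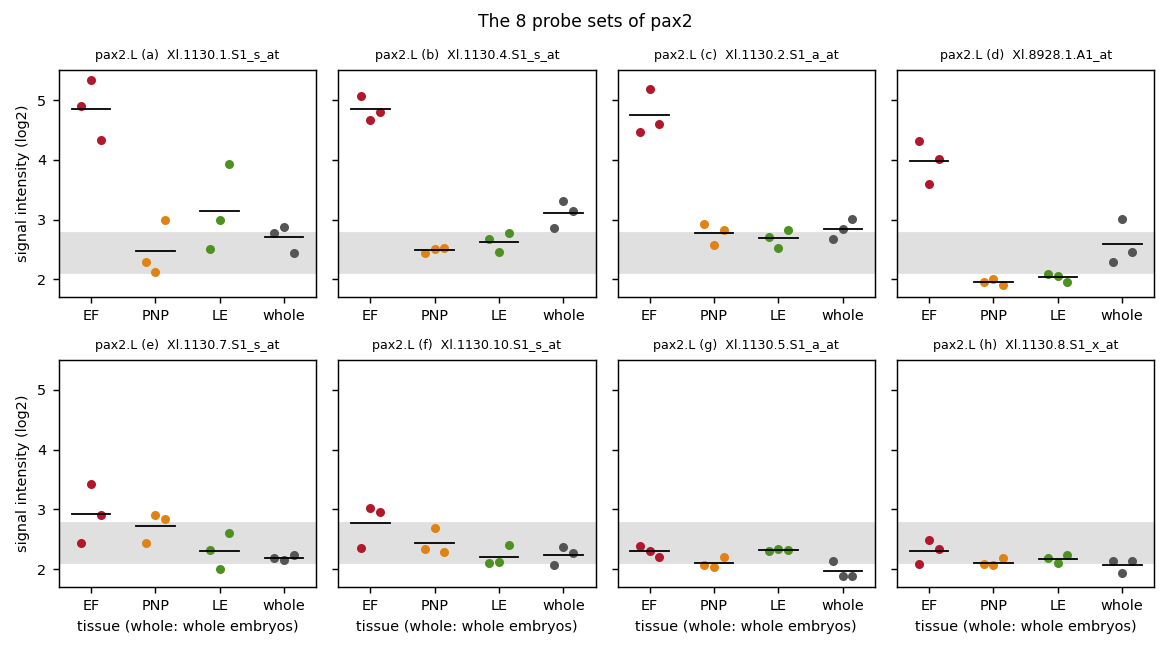
Log2 signal intensity (vertical axis) of the 8 *pax2* probe sets in the 4 tissues, ordered by mean signal. Points are arrays, black lines are means and the grey band is the range of the background ceiling. In the first 4 panels the EF arrays lie between 3.60 and 5.33, and in the last panel between 2.08 and 2.48.

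*en2*, an engrailed homeobox gene of the isthmus and tectum, was measured on a probe set for each copy, and both were dim. *en2.L* read 3.62, 3.81 and 3.63 in EF and 2.33, 3.04 and 2.50 in whole embryos, with 2.90, 3.07 and 3.69 in PNP and 2.68, 2.95 and 3.36 in LE. The EF and whole-embryo arrays did not overlap, whereas the highest PNP array, replicate 3, lay among the EF arrays. *en2.S* read 3.19, 3.14 and 3.67 in EF and 1.96, 2.50 and 2.29 in whole embryos. Its PNP arrays lay at 2.83 or below and its LE arrays at 2.26, 2.33 and 2.58, all under the lowest EF array. Both copies rose in EF against whole embryos, *en2.L* by 1.06 (SE 0.24, adjusted p = 0.00803 from limma) and *en2.S* by 1.09 (SE 0.21, adjusted p = 0.00268). By the methods' t-test neither rise passed, at adjusted p = 0.0816 for *en2.L* and 0.0842 for *en2.S*. *en2.S* was also higher in EF than in PNP by 0.88 (SE 0.21, adjusted p = 0.00785 from limma) and than in LE by 0.95 (SE 0.21, adjusted p = 0.00471). These calls too were lost by the methods' t-test (adjusted p = 0.128 and 0.0552). For *en2.L* the corresponding differences were 0.46 (adjusted p = 0.199) and 0.69 (adjusted p = 0.0557). Without LE replicate 3 the latter passed at 0.87 (adjusted p = 0.0324), and without both PNP and LE replicate 3 both did, at 0.70 (adjusted p = 0.0339) and 0.87 (adjusted p = 0.0137). *en2.L* differed between PNP and whole embryos by 0.60 (adjusted p = 0.0937), and passed without whole-embryo replicate 2, at 0.81 (adjusted p = 0.0387), and under median centring, at 0.75 (adjusted p = 0.0287). The order of the means was EF, PNP, LE and whole embryos for both copies. In neither were PNP, LE and whole embryos called different from each other in the limma fit of all arrays with intensities as deposited.

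The *gbx2* genes encode homeobox factors that set the anterior limit of the hindbrain and, in *Xenopus*, are also active in ectoderm outside the neural plate. They were highest in LE on all 3 of their probe sets. *gbx2.1* (the S copy) read 5.53, 5.88 and 5.68 in LE and 3.24, 3.47 and 3.58 in whole embryos. In EF it read 2.85, 3.14 and 2.61, and in PNP 2.59, 3.10 and 2.68. The LE arrays stood apart from the other 9, and those of EF and PNP lay near the ceiling. LE exceeded whole embryos by 2.27 (SE 0.18, 4.81-fold, adjusted p = 9.80e-06 from limma), EF by 7.10-fold and PNP by 7.49-fold.

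*gbx2.2* (the L copy) had 2 probe sets, the brighter a and the dimmer b, with the same order of tissues. Probe set b read 4.90, 4.91 and 5.04 in LE and 3.08, 2.80 and 3.21 in whole embryos, a difference of 1.92 (SE 0.17, 3.79-fold, adjusted p = 2.88e-05 from limma). In EF and PNP this probe set lay under the ceiling on all 6 arrays, and LE was at least 5.74-fold higher than EF and at least 5.45-fold higher than PNP. Probe set a read 6.29, 6.44 and 5.41 in LE and 4.56, 4.34 and 4.73 in whole embryos, a difference of 1.51 (SE 0.25, 2.85-fold, adjusted p = 0.00275). It read 3.96, 4.37 and 3.76 in EF and 3.82, 3.44 and 3.59 in PNP, all above the ceiling. LE was 4.05-fold higher than EF and 5.39-fold higher than PNP by this probe set. By the methods' t-test its difference between LE and whole embryos did not pass (adjusted p = 0.136).

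Below whole embryos the *gbx2* differences were smaller and less stable. By probe set b *gbx2.2* was at least 1.51-fold lower in EF than in whole embryos (adjusted p = 0.00262) and at least 1.44-fold lower in PNP (adjusted p = 0.00207). By probe set a the log2 difference was -0.92 in PNP (adjusted p = 0.0192) and -0.51 in EF (adjusted p = 0.179). The former was lost without PNP replicate 2 or whole-embryo replicate 3, at -0.83 and adjusted p of 0.0693 and 0.0662. *gbx2.1* differed from whole embryos by -0.56 in EF (adjusted p = 0.0453) and -0.64 in PNP (adjusted p = 0.0227). In EF the call was lost without EF replicate 1 or 3 or whole-embryo replicate 2 or 3, at differences of -0.55 to -0.44 and adjusted p of 0.104 to 0.157, and under quantile normalization (-0.46, adjusted p = 0.134) and median centring (-0.48, adjusted p = 0.102). In PNP it was lost without PNP replicate 1 or 3 or whole-embryo replicate 2 or 3, at -0.62 to -0.54 and adjusted p of 0.0626 to 0.0829, and likewise under quantile normalization (-0.51, adjusted p = 0.0908) and median centring (-0.49, adjusted p = 0.0786). By the methods' t-test no *gbx2* call below whole embryos passed, at adjusted p of 0.0560 to 0.157. EF and PNP were not called different from each other on any of the 3 probe sets.

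The LE samples in which *gbx2* was high were also those with high epidermal, endodermal and lateral plate markers. For epidermis and endoderm this holds against EF and PNP more than against whole embryos. Whole embryos summed to 4060 to 4574 and 538 to 713 units, near LE at 4400 to 5376 and 624 to 704. Between LE and whole embryos, 3 epidermal and 6 endodermal markers were not called. The 5 epidermal markers summed to 359 to 503 units in EF and 31.2 to 43.0 in PNP, with none of the 5 at or under the ceiling in any tissue. Against whole embryos, 2 of the 5 were higher in LE, the transcription factor genes *grhl3* and *tfap2a*. The 7 endodermal markers summed to 48.7 to 63.2 in EF and 47.6 to 71.6 in PNP, and 1 of them, *gata5*, was higher in LE than in whole embryos. The 4 lateral plate and pronephros markers summed to 76.9 to 98.3 in LE, 42.6 to 43.8 in whole embryos, 26.0 to 28.3 in EF and 26.2 to 35.6 in PNP. In LE, *foxf1*, of lateral mesoderm, and *lhx1*, of the pronephros, were higher than in whole embryos. The part of these tissues in the *gbx2* signal was not tested. In the gene table of assembly v10.1, *gbx2.1* and *gbx2.2* are next to each other in both subgenomes.

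*egr2*, the zinc-finger gene of alternating rhombomeres, had signals close to the background ceiling. It read 2.30, 2.18 and 2.36 in EF, 2.39, 2.74 and 2.30 in PNP, 2.24, 2.04 and 2.09 in LE and 2.22, 2.33 and 2.03 in whole embryos. It exceeded the ceiling on 4 of 12 arrays, 2 of them in PNP, 1 in EF and 1 of whole embryos, and its 6 log2 differences, from -0.20 to 0.35, did not pass (adjusted p of 0.0931 to 0.790 from limma). The PNP and LE arrays did not overlap, at a log2 difference of 0.35 (SE 0.14, adjusted p = 0.0931).

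*irx1* had the largest range over the tissues of the 3 Iroquois genes by mean log2 signal. It read 6.29, 6.89 and 6.55 in EF and 5.66, 5.29 and 5.42 in whole embryos. In LE it read 3.89, 4.05 and 4.02, and in PNP 3.50, 3.24 and 3.66. No group overlapped another. EF exceeded whole embryos by 1.12 (SE 0.17, 2.17-fold, adjusted p = 5.66e-04 from limma), LE by 6.03-fold and PNP by 8.65-fold. By the methods' t-test the difference of EF from whole embryos did not pass (adjusted p = 0.0672). In LE *irx1* was 2.78-fold lower than in whole embryos (adjusted p = 2.41e-04 from limma) and in PNP 3.98-fold lower (adjusted p = 3.41e-06). PNP and LE, the lowest neighbours in this order, differed by -0.52 (adjusted p = 0.0414). That call was lost without PNP replicate 1 or 2 or any 1 LE array, at -0.57 to -0.41 and adjusted p of 0.0618 to 0.153.

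*irx3* had the same order of tissue means as *irx1*, at lower signals. It read 5.23, 5.19 and 4.41 in EF and 3.40, 3.73 and 3.62 in whole embryos, so that even its lowest EF array lay above whole embryos. In LE it read 3.24, 3.10 and 3.32, and in PNP 2.29, 2.62 and 2.38, near the ceiling. EF exceeded whole embryos by 1.36 (SE 0.20, 2.57-fold, adjusted p = 4.65e-04 from limma), LE by 3.31-fold and PNP by 5.70-fold. By the methods' t-test the difference of EF from whole embryos did not pass (adjusted p = 0.0814). PNP was 2.22-fold lower than whole embryos (adjusted p = 0.00139 from limma) and 1.72-fold lower than LE (adjusted p = 0.0122). Without PNP and LE replicate 3 the difference of PNP from LE was -0.71 (adjusted p = 0.0900). LE and whole embryos differed by -0.36 (adjusted p = 0.280), although their arrays did not overlap.

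The tissue order of *irx2* differed from that of the other Iroquois genes, with LE first and next to EF. It read 5.37, 6.13 and 5.35 in EF, 5.74, 5.91 and 5.53 in LE and 5.30, 4.80 and 5.34 in whole embryos. In PNP it read 2.67, 2.61 and 4.05, with replicate 3 well above the other 2 arrays and still below every array of the other tissues. EF, LE and whole embryos were not called different from each other: EF differed from whole embryos by 0.47 (SE 0.34, adjusted p = 0.374 from limma), LE from whole embryos by 0.58 (SE 0.34, adjusted p = 0.311) and EF from LE by -0.11 (SE 0.34, adjusted p = 0.863). The arrays of EF and of LE did not overlap those of whole embryos. The SE is shared by all groups, with an SD of 0.82 in PNP, 0.44 in EF, 0.19 in LE and 0.30 in whole embryos. With only the compared groups in the fit these differences were not called either. PNP was 4.11-fold lower than whole embryos (adjusted p = 0.00104), 5.69-fold lower than EF (adjusted p = 1.81e-04) and 6.15-fold lower than LE (adjusted p = 1.03e-04). By the methods' t-test the differences of PNP from whole embryos and from EF did not pass (adjusted p = 0.103 and 0.0743), while that from LE did.

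*irx1.L* and *irx2.L* are neighbours in the gene table of assembly v10.1, with *irx4.L* on the far side of *irx2.L*. Read within each array, *irx2* gained 2.05 log2 units on *irx1* between whole embryos and LE (SE 0.17) and 2.71 units between EF and LE, and the arrays of the groups did not overlap in either comparison. By the exact two-sided permutation test each has p = 0.1, the smallest that 3 arrays against 3 can give, and 0.3 after Benjamini-Hochberg adjustment over the 30 such comparisons made between members. *irx3* also gained on *irx1*, by 1.11 (SE 0.23) between whole embryos and LE and by 0.84 (SE 0.29) between whole embryos and PNP, without overlap and again at exact permutation p = 0.1. For *irx2* and *irx1* between whole embryos and PNP, both genes were lower in PNP, and their falls differed by -0.05 (SE 0.40, exact permutation p = 0.9). The *en2* copies and the *gbx2* genes were set against each other in the same way, and the rise of *gbx2.1* from whole embryos to LE differed from that of *gbx2.2* by 0.76 (SE 0.34) on probe set a and by 0.34 (SE 0.19) on probe set b, with exact permutation p = 0.1 and 0.3. For the *en2* copies between EF and whole embryos the difference was -0.02 (SE 0.23, exact permutation p = 1), and between PNP and whole embryos *en2.L* gained 0.39 on *en2.S* (SE 0.13, exact permutation p = 0.1). These pairs were chosen after their values were seen.

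**Figure D3:**
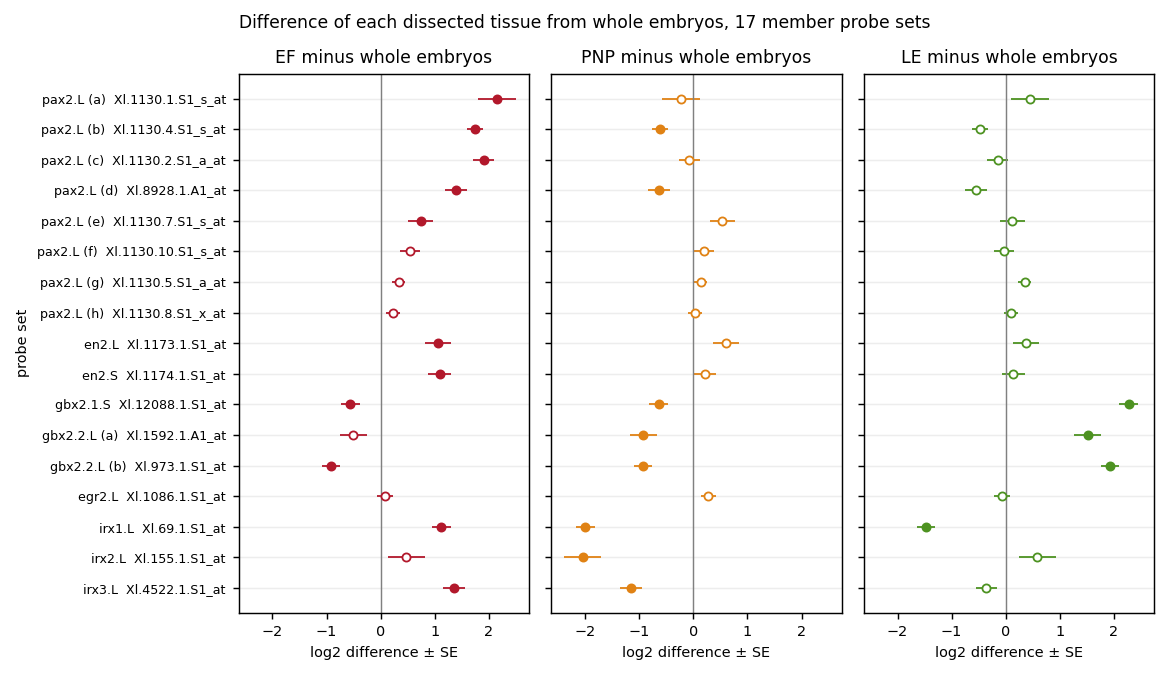
Log2 difference of EF, PNP and LE from whole embryos (horizontal axis) for the 17 member probe sets. Points are limma estimates, bars are 1 standard error, and filled points passed an adjusted p under 0.05. The 3 *gbx2* points lie between 1.51 and 2.27 in LE and below 0 in EF and PNP, and the 3 *irx* points in PNP lie between -2.04 and -1.15.

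The EF arrays also had high anterior markers. The study lists *hesx1* and *otx1* of the forebrain markers and *sox2* and *cdh2* of the neural plate markers among its eye genes. It selected these partly by enrichment in these EF samples, so they are no independent check. The 3 measured forebrain markers summed to 1026 to 1310 units in EF and 219 to 244 in whole embryos, and the 4 neural plate markers to 909 to 1177 and 482 to 544, with no marker of either list at or under the ceiling. Of the 4 neural plate markers, limma called 2 higher in EF than in whole embryos, *sox3* and *ncam1*. The other 2 did not pass, *sox2* at 0.98 (adjusted p = 0.0764) and *cdh2* at 0.45 (adjusted p = 0.0795). In PNP the forebrain markers summed to 29.0 to 34.6 and the notochord and muscle markers were high, as given above. The 5 measured markers of neural crest and plate border summed to 489 to 597 in EF, 354 to 383 in PNP, 628 to 706 in LE and 616 to 701 in whole embryos, with none at or under the ceiling. In PNP, 3 of these 5 were lower than in whole embryos by limma, *snai2* by a log2 difference of -1.50, *sox9* by -2.34 and *msx1* by -4.04. In EF, *snai2* exceeded whole embryos by 0.77 (adjusted p = 0.0366) and *sox9* by 0.73 (adjusted p = 0.0487), while *pax3* was lower, at -0.55 (adjusted p = 0.0317). In LE, 2 were lower, *foxd3* at -0.93 and *msx1* at -1.10. The part of these tissues in the member differences was not tested.

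Genes that act with the members at the isthmus and in the hindbrain were read as a list of 37, of which 26 were on the array, each from its brightest probe set. In EF, 6 of the 26 were higher than in whole embryos and 8 lower, where 10.1% and 12.2% of all genes were called. With 1 array left out the EF count ran from 8 to 11, with 1 to 3 genes higher and 7 to 9 lower. It was lowest without whole-embryo replicate 1, with 1 higher and 7 lower, and then without whole-embryo replicate 3, with 2 and 7, so the higher count did not hold. In PNP, 10 were higher and 4 lower, against 10.7% and 13.4%. The higher counts of EF and PNP both include *pax5*, at or under the ceiling on every EF, PNP and whole-embryo array. That of EF also includes *wnt1*, at or under the ceiling on every whole-embryo array. In LE, 2 were higher and 4 lower, against 3.11% and 5.92%. Over the 26 partners the median log2 differences from whole embryos were -0.00 for EF, 0.25 for PNP and 0.13 for LE, beside 0.10, 0.06 and 0.02 over all genes. EF exceeded PNP in 2 and fell short of it in 12, against 15.1% and 11.2%.

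Both anterior partners, *otx2* and *cyp26c1*, were high in EF and low in PNP and LE. *otx2*, the gene that opposes *gbx2* at the isthmus, had mean log2 signals of 8.85 in EF, 7.50 in whole embryos, 3.30 in LE and 2.87 in PNP. *cyp26c1*, which breaks down retinoic acid, had 8.02, 6.91, 3.26 and 2.78 in the same order. The study selected *otx2* too partly by enrichment in these EF samples, so the rise of *otx2* in EF is not independent evidence. *foxb1*, a forkhead gene of the neural plate, had 8.07 in PNP, 7.52 in EF, 5.81 in whole embryos and 2.83 in LE. *fgf8*, the signal of the isthmus, which is also made in the tailbud, had 9.07 in PNP, 7.90 in whole embryos, 6.80 in EF and 4.95 in LE, with a call in all 6 comparisons. *wnt1*, its partner at the isthmus, exceeded the ceiling on all 3 EF arrays and 1 PNP array, at a mean log2 signal of 2.54 in EF. *pax5*, a relative of *pax2*, exceeded it on 1 array and is given no fold.

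Of the hindbrain Hox genes, *hoxa2*, *hoxa3* and *hoxb4* had their lowest signal in EF. *hoxa2*, the most anterior of them in the hindbrain, had mean log2 signals of 5.31 in PNP, 5.31 in LE, 4.24 in whole embryos and 2.93 in EF, and *hoxa3* had 6.17, 6.33, 5.95 and 2.86. *hoxb4* had 4.68 in PNP, 3.64 in LE, 3.21 in whole embryos and 2.25 in EF. All 3 were called lower in EF than in each other group, and in EF *hoxa3* and *hoxb4* exceeded the ceiling on 2 and 1 of 3 arrays. *aldh1a2*, which makes retinoic acid, had 8.53 in LE, 6.31 in whole embryos, 4.94 in PNP and 3.59 in EF. Like *gbx2* it was highest in LE and next in whole embryos. Unlike *gbx2*, it was called lower in EF than in PNP (log2 difference -1.36, adjusted p = 0.00344 from limma). *meis3*, a Hox cofactor of the hindbrain, had 8.76 in LE, 7.95 in whole embryos, 6.45 in EF and 5.60 in PNP, the order of the *gbx2* means. Of the other Iroquois genes, *irx4* exceeded the ceiling on 3 of 12 arrays and *irx5* on 0, and neither passed in any comparison. The partners named were picked with their values known.

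**Figure D4:**
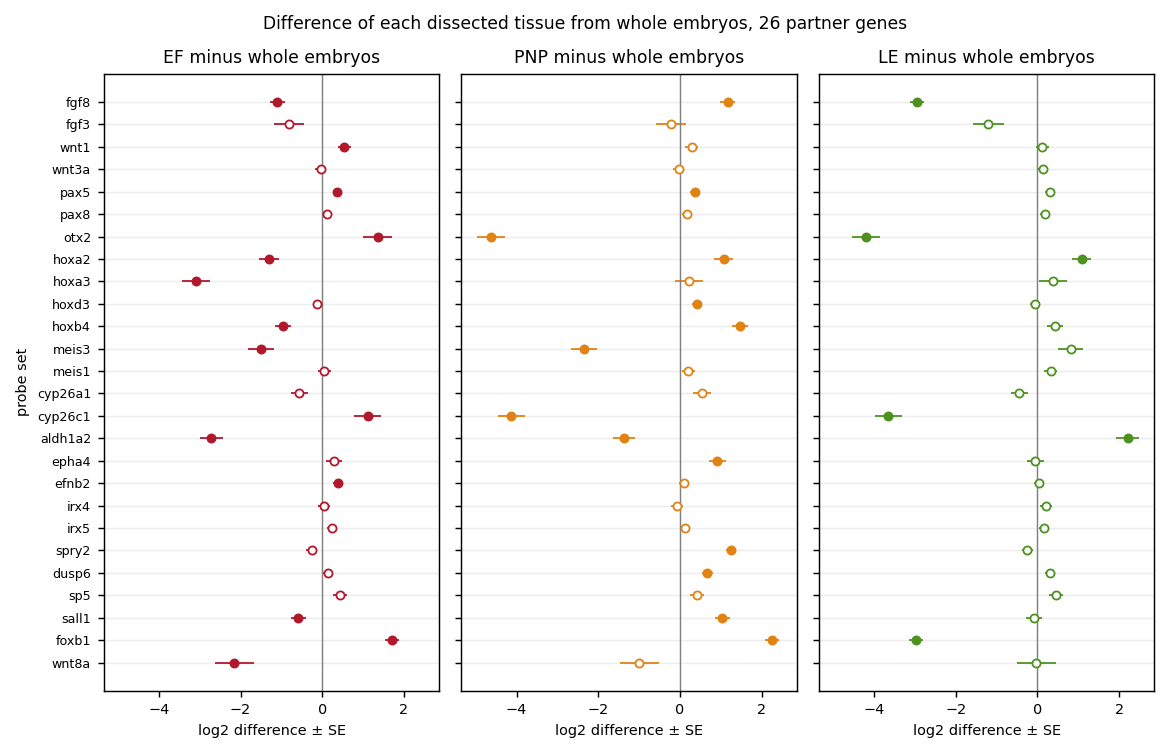
Log2 difference of EF, PNP and LE from whole embryos (horizontal axis) for the 26 measured partner genes of the isthmus and hindbrain. Points are limma estimates, bars are 1 standard error, and filled points passed an adjusted p under 0.05. *otx2* lies at 1.35 in EF, -4.63 in PNP and -4.20 in LE, and *aldh1a2* at -2.72, -1.37 and 2.21.

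Among 1676 other genes whose tissue means spanned at least 1 log2 unit, those most like each member over the 12 arrays were named by Pearson's r of log2 signal. *irx1* was most like *cyp26c1* (r = 0.973), the Notch-pathway repressor gene *hes7.1* (0.969) and the neural plate gene *zic1* (0.968). *irx3* was most like *pdik1l* (0.976), *fam171a1* (0.972) and *zfp36l1* (0.971), and *irx2* like *chmp4b* (0.945), *nfe2* (0.943) and *ccng2* (0.943). *gbx2.1* was most like *fut1* (0.966), *pigv* (0.959) and a gene known by a locus number, and *gbx2.2* like *fam83d* (0.945), *gfus* (0.942) and *hunk* (0.938). The brightest *pax2* probe set was most like *pias1* (0.917), *fam171a1* (0.911) and *cdc45* (0.910), and *en2.L* like *stag1* (0.919), *nr2f2* (0.852) and *alx1* (0.830). For *egr2* the closest, *hyou1*, had r = 0.891, over signals that lay at background. Among the members, *irx1* and *irx3* correlated at r = 0.91, *irx3* and *pax2* probe set b at 0.94, and *irx1* and *irx2* at 0.60. The 12 points fall into 4 tissues and share array and normalization, so these values describe the tissue pattern and carry no test.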

How the data were processed

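The data are 12 Affymetrix arrays of *X. laevis* RNA, with 3 in each of 4 groups read from the sample titles. The authors deposited linear signal intensities, 1 column per array with 0 others, made by the study's methods with RMA in GeneSpring GX, and no division by whole embryos is seen in them. Their floor is low for RMA and the table does not settle which background step was used, so signals near the ceiling, and each "at least" fold, depend on that step. The scans were not used. Values were analysed as log2 intensity, unfiltered, and 120 of 15611 probe sets, the controls, were left out. Gene names came from the platform annotation (1 symbol for 9304 probe sets, several for 195, none for 5992), updated through gene identifiers where the gene table of assembly v10.1 held them (9227 probe sets), which gave 6504 genes. A gene outside the members was read from its brightest probe set.

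limma 3.58.1 in R 4.3.3 compared the 4 groups in 1 fit of all arrays, with Benjamini-Hochberg adjustment over 15491 probe sets, and adjusted p under 0.05 was a call. The calls were set against those with quantile normalization, median centring, an offset of 8, a filter on dim probe sets, a fold limit of 2, array weights, an intensity trend, the replicate number as block, the methods' t-test, only the groups compared in the fit, and single arrays removed. Leaving out PNP and LE replicate 3 together was added after the data were seen. The methods' t-test is an unpaired Student's t-test with Benjamini-Hochberg adjustment, run here on every comparison. The study's supplement names it for comparing pluripotent cells given eye field factors with each dissected tissue. For enrichment over whole embryos the study gives a fold criterion and names no test. The ceiling of the background was the highest of 27 Bacillus control probe sets on an array. A group under it on all 3 arrays gives a fold of "at least" N, reckoned from the ceiling or the signal, whichever was higher. The code was tested on simulated data. By the study's methods the triplicates are of different days and different females. With 3 arrays a group the precision is limited. Members, lists and tests were chosen with earlier results of these data known. Named were all member probe sets, the 3 genes most like each member, and partner genes as examples. Summaries used Python 3.11.15.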

Additional observations from a re-analysis of the deposited data

Results flagged for a closer look

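Several members departed from whole embryos in opposite directions in different tissues, with the difference between the tissues itself called by limma over all 12 arrays. *irx1* was above whole embryos in EF and below it in PNP and LE, with log2 differences of 3.11 between EF and PNP and 2.59 between EF and LE. *irx3* was above whole embryos in EF and below it in PNP, with 2.51 between them. *pax2* was above whole embryos in EF and below it in PNP on probe set b, with 2.36 between them, and on probe set d, with 2.02. *gbx2.1* was below whole embryos in EF and PNP and above it in LE, with differences from LE of -2.83 for EF and -2.91 for PNP. *gbx2.2* did the same on probe set b, with -2.84 and -2.86, and on probe set a for PNP, with -2.43. The adjusted p of these differences between tissues ran from 8.52e-08 to 1.35e-05 and does not test the departures from whole embryos. The departures below whole embryos of *gbx2.1*, of *pax2* and of *gbx2.2* on probe set a lost their calls with single arrays left out, as given above. Groups of 3 arrays are too small for a test of single outlying arrays.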

How the results depend on the processing

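Of the 48 calls of member probe sets in the 6 comparisons, 39 were kept under all alternatives other than the methods' t-test and a fold limit of 2, 0 turned in direction, and 41 were kept without PNP and LE replicate 3. The fold limit kept 35 and the methods' t-test 27. With the methods' t-test the count of members called against whole embryos fell to 3 in EF, *pax2* probe sets a, b and c, and to 2 in PNP. With the fold limit it fell to 3 in PNP. Leaving out 1 array gave 5 to 8 calls in PNP against whole embryos, with the lowest without whole-embryo replicate 3. The other counts of members stayed within 1.5 times their value. The shares of all probe sets called under each alternative are not given here. A changed count is therefore no result about the members or partners. Of the partner genes, 14 were called in EF against whole embryos, but 9 with the fold limit or with only these groups in the fit, 3 with the methods' t-test, and 8 and 9 without whole-embryo replicate 1 or 3. The methods' t-test called 8 partners in PNP (from 14) and 3 in LE (from 6) against whole embryos, and in EF 9 against PNP (from 14) and 7 against LE (from 11). The labels do not say whether a replicate number is shared between groups. Deviations of same-numbered arrays from their group means correlated weakly, at r of -0.17 to 0.21 over 18 pairs. With the number as a replicate block, 46 calls were kept and 2 were lost. Of the 64 member differences followed under all alternatives, 1 newly passed. The members called were then 12, 7 and 4 in EF, PNP and LE against whole embryos. In EF, 8 and 12 were called against PNP and LE, and 5 in PNP against LE. The rise from 11 to 12 in EF against whole embryos came from a probe set outside those 64. The calls lost were *pax2* probe set d in PNP against whole embryos (adjusted p = 0.0657 from limma) and *irx1* in PNP against LE (0.0668), and *en2.L* passed in EF against LE (0.0378). The sign of *egr2* turned in EF against whole embryos under quantile normalization (-0.01) and in LE against whole embryos under median centring (0.03), and its leave-one-out values ran from -0.00 to 0.15 and from -0.16 to -0.00. That of *irx2* between EF and LE, uncalled in all, ran from -0.37 to 0.02 with 1 array left out. Median centring moved the median of all differences from whole embryos in PNP from 0.07 to 0.22 and in LE from 0.04 to 0.14, and the share of higher among all calls from 45.6% to 58.1% in EF, from 45.9% to 68.7% in PNP and from 37.4% to 60.6% in LE (49.4% under quantile normalization). Signals near the ceiling limit *egr2*, *en2* and 4 of the *pax2* probe sets.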
